A study of Mus musculus with 4 samples.

Results

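The cell cycle and proliferation genes described here are 44 genes that dividing cells use to copy DNA and to separate chromosomes, taken by symbol from the 24421 genes of the expression matrices. All 44 were present and all 44 passed the filter on low values, among 14106 tested genes. They fall into 18 S-phase genes (G1/S cyclins, replication proteins, deoxynucleotide synthesis and their regulators) and 26 mitotic genes (mitotic cyclins and kinases, spindle, centromere and cytokinesis proteins). Mki67 and Ccna2, which are already made in S phase and whose transcripts peak in G2, were counted with the mitotic genes.

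RNA-seq had been performed on epididymal adipose tissue, the visceral fat beside the epididymis, of wild-type male C57BL/6J mice. Ctrl mice started high-fat diet (HFD) at an age of 10 weeks and ate it without interruption for 14 weeks. WC1 mice, the weight-cycling group, started at 8 weeks of age and had 8 weeks of HFD, 2 weeks of standard diet to lose weight, and 6 more weeks of HFD. Both groups therefore had 14 weeks of HFD, ended on HFD and were 24 weeks old at the end, and no lean group was part of these libraries. There were 2 libraries per group, Ctrl 1 and 2 with 71658062 and 90965297 reads and WC1 1 and 2 with 61655738 and 61465029 reads. The labels do not say whether a library came from 1 mouse or from a pool, so the p-values below measure only the spread between these libraries.

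In a cell that enters division, E2F transcription factors switch on cyclin E, the licensing proteins CDC6 and MCM2 to MCM7, the sliding clamp PCNA and the enzymes that make deoxynucleotides. Later, FOXM1 and the MuvB complex switch on cyclin B, CDK1, PLK1, the Aurora kinases and the spindle and centromere proteins. E2F factors act through E2F sites, and MuvB acts through the cell cycle genes homology region (CHR), often near CCAAT boxes bound by NF-Y. Mature adipocytes rarely divide, whereas macrophages, adipocyte progenitors and endothelial cells of obese adipose tissue can proliferate there. In whole tissue, fewer cells of a dividing type and less RNA per cell cannot be told apart.

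The words of these regulators were searched for around the gene starts. RefSeq promoter windows (GRCm38.p6, the build also named mm10, 250 bases before to 50 after each start) were found for 37 of the 44 members, 41 windows in all. The CHR word TTTGAA was in 17 of 22 mitotic windows (77.3%) and 3 of 19 S-phase windows (15.8%), beside 17.9% of all 32851 windows of the genome and 12.2% of the windows of tested genes. An E2F word (TTTCCCGC, TTTCGCGC, TTTGCCGC or TTTGGCGC) was in 7 S-phase windows (36.8%) and 1 mitotic window (4.55%), beside 2.26% of all windows and 3.70% of those of tested genes. The CCAAT word was common in both, at 73.7% of S-phase and 86.4% of mitotic windows against 37.4% of all. CHR and CCAAT occurred together in 72.7% of mitotic windows, 15.8% of S-phase windows and 6.95% of all. The CHR word lay only after the start in 8 of the 17 mitotic windows with a match, and the E2F word in 2 of the 7 S-phase windows. The windows of Prc1 overlap each other, so its CHR and CCAAT words were counted in both. For the E2f1 window and 1 Mcm7 window, the 250 bases before the start lie wholly in the gene's own exons. Both strands were searched, overlapping matches were counted separately, and a match is a description of the letters only.

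**Figure D1:**
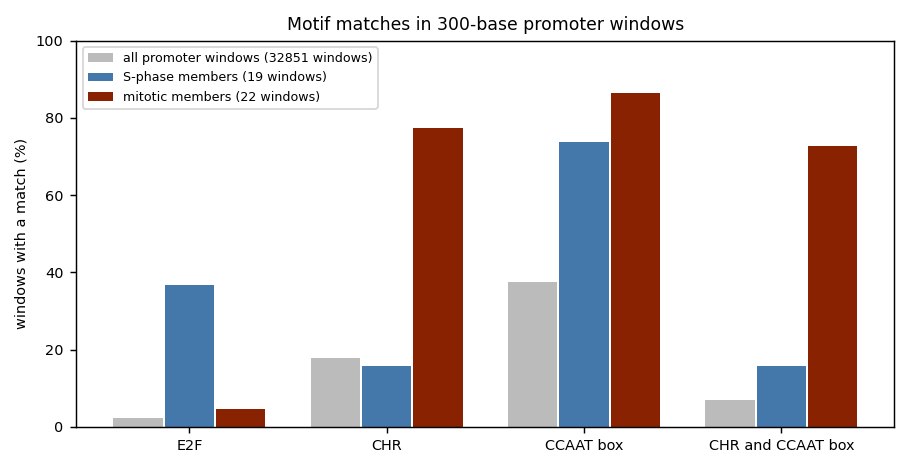
Bars give the percentage of promoter windows with at least 1 match to each motif, on a linear axis from 0, for all windows (grey), S-phase members (blue) and mitotic members (dark red). The E2F bar is highest for S-phase windows at 36.8%, and the CHR bar is highest for mitotic windows at 77.3%.

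The sequences below show these words in 3 S-phase and 3 mitotic members, printed 5′ to 3′ on the strand of the gene and limited to bases before the start that carry no annotated exon. Rrm2, Ccnb1 and Top2a were among the members of their class with the smallest p and had such a stretch. Mcm5, Mcm6 and Mki67 were chosen after the matches had been seen, because they hold the words of their class. Capitals mark the matches to CHR, CCAAT and E2F words on either strand.
Rrm2 (chr12:24708004-24708240, + strand): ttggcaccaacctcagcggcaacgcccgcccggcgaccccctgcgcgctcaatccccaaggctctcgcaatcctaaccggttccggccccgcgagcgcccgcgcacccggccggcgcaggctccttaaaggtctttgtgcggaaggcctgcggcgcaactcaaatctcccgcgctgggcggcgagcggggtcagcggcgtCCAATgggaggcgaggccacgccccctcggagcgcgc
Mcm5 (chr8:75109259-75109508, + strand): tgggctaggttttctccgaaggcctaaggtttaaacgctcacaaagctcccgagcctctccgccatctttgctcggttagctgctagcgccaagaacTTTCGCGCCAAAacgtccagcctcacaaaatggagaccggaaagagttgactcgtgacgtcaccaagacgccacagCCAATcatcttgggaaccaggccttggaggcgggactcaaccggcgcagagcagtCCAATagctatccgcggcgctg
Mcm6 (chr1:128359706-128359955, - strand): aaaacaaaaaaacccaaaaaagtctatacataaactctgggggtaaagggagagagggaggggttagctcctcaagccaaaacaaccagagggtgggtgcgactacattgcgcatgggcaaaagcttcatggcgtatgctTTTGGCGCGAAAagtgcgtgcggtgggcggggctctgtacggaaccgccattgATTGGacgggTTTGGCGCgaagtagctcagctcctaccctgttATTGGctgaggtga
Ccnb1 (chr13:100786571-100786736, - strand): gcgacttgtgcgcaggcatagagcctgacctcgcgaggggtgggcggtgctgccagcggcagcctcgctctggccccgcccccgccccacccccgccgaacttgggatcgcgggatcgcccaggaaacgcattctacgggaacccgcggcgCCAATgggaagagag
Top2a (chr11:99024190-99024439, - strand): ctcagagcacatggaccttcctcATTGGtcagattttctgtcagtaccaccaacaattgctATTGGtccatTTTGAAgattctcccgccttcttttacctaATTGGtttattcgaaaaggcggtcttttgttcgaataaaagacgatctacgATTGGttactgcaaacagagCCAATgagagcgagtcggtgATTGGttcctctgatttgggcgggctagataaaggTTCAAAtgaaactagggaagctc
Mki67 (chr7:135716380-135716629, - strand): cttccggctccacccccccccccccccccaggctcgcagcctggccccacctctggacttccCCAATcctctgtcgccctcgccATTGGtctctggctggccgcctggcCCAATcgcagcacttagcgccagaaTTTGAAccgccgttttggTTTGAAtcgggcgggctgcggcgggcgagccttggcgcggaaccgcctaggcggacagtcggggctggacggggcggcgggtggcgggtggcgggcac
Mcm5 and Mcm6 show E2F words on both strands that overlap each other, with 2 and 3 matches in all. Top2a shows 2 CHR words among 6 CCAAT boxes, and Mki67 shows 2 CHR words after 3 CCAAT boxes. Rrm2 and Ccnb1 each show 1 CCAAT box and neither a CHR nor an E2F word in these bases.

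Of the 44 members 3 passed the test, all lower in WC1 than in Ctrl. Pcna, E2f1 and Ccnb1 were lower in WC1 (3 of 44, 6.82%), beside 7.71% of all tested genes called lower, and 0 of 44 were higher, beside 10.2% of all tested genes called higher and 17.9% called in either direction. The test was two-sided limma on log2(CPM + 1), with p-values adjusted by Benjamini-Hochberg across the 14106 genes and a threshold of 0.05, where CPM is the deposited value scaled to library size and fold changes are WC1 minus Ctrl on that log2 scale. The share of members called lower was thus near the background, and the share called in either direction was under it. At an unadjusted p under 0.05, 12 members were lower (27.3%, beside 18.9% of all tested genes) and 0 were higher.

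Most estimates were below 0 in CPM and fewer were in TPM. The median log2 fold change of the 44 members was -0.14 (range -0.72 to 0.13), beside -0.02 over all tested genes. Of the 44 estimates 40 were below 0 (90.9%), beside 52.8% of all tested genes. In CPM, both WC1 libraries were below both Ctrl libraries for 28 members (63.6%, beside 36.6% of all tested genes), both were above for 3 (Anln, Bub1b and Aurkb), and the groups overlapped for 13. In TPM, reads per transcript length scaled to 1 sum per library, the median of all tested genes moved up by 0.12 to 0.10, and only 23 members then stayed below 0, although 36 stayed below that median. In that matrix both WC1 libraries were below both Ctrl libraries for 12 members, beside 21.7% of all tested genes, and above for 6, beside 49.1%. The TPM fit called 1 member lower, beside 4.13% of all tested genes, and 0 higher, beside 14.6%.

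The summed CPM of the members was 1385 and 1329.5 in Ctrl and 1194 and 1079.8 in WC1, a mean of 83.8% of Ctrl. The groups did not overlap, and WC1 2 was the lowest library, but the same held for the CPM sum of all tested genes, whose WC1 mean was 94.9% of Ctrl. Pcna alone was a large part of this sum, and without it the WC1 mean was 88.2% of Ctrl. In TPM the sum was 88.9% of Ctrl with Pcna and 98.9% without it.

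**Figure D2:**
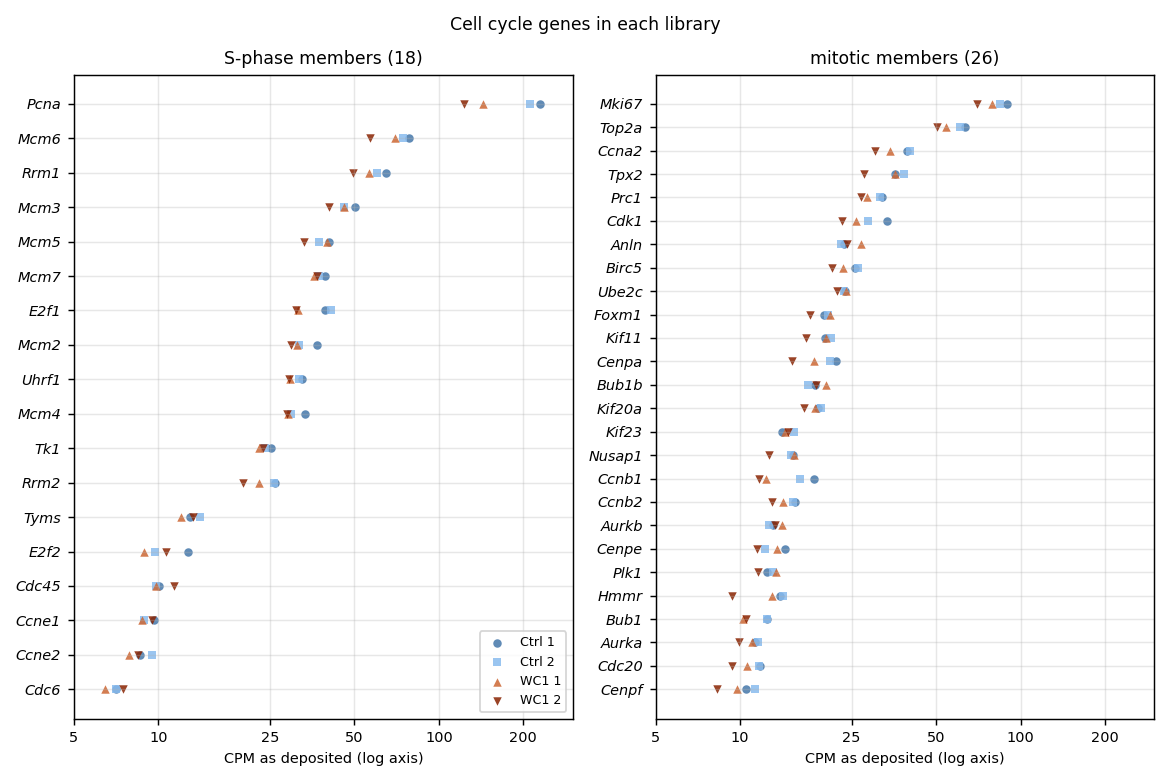
Each row is 1 member, ordered by mean CPM within the 18 S-phase genes (left) and the 26 mitotic genes (right), and each symbol is the deposited CPM in 1 library on a log axis, blue for Ctrl and orange to brown for WC1. The WC1 symbols lie left of the Ctrl symbols for 28 of the 44 members, Pcna, E2f1 and Ccnb1 among them, beside 36.6% of all tested genes. WC1 2 is the leftmost symbol for most mitotic genes.

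The largest change was in Pcna, which encodes the ring that holds DNA polymerase on its template and also serves DNA repair (ENSMUSG00000027342.14, mm10 chr2:132249162-132253314, minus strand, GENCODE M21). Its CPM was 229 in Ctrl 1, 211 in Ctrl 2, 144 in WC1 1 and 123 in WC1 2. Both WC1 libraries lay well below both Ctrl libraries, and the WC1 mean was 60.7% of the Ctrl mean. The log2 fold change was -0.72 ± 0.10 (SE, n = 2 per group, 95% interval -0.99 to -0.45, limma adjusted p = 0.0205). Pcna was the only member called also in TPM (-0.58, limma adjusted p = 0.0278). It was the most abundant member per transcript length, at a mean of 280 TPM, 5.54 times the next member.

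E2f1, a transcription factor that turns on S-phase genes, is encoded at chr2:154559407-154569892 on the minus strand (ENSMUSG00000027490.17). Its CPM was 39.4 and 41.2 in Ctrl and 31.4 and 31.0 in WC1, so the libraries of each group lay close together and the groups did not overlap. The log2 fold change was -0.36 ± 0.07 (SE, n = 2 per group, limma adjusted p = 0.0343), with the WC1 mean at 77.5% of Ctrl. In TPM it was -0.22 and no longer passed (limma adjusted p = 0.0926).

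Ccnb1 encodes cyclin B1, the partner of CDK1 that drives entry into mitosis (ENSMUSG00000041431.16, chr13:100778650-100786570, minus strand). Its CPM was 18.4 and 16.4 in Ctrl and 12.3 and 11.7 in WC1. Both WC1 libraries were lower, with a mean at 69.1% of Ctrl. The log2 fold change was -0.50 ± 0.10 (SE, n = 2 per group, limma adjusted p = 0.0349) in CPM and -0.36 in TPM (limma adjusted p = 0.0545). Ccnb1 also did not pass without the filter on low values. None of the 3 calls held when a Ctrl library was left out, with limma adjusted p between 0.117 and 0.251, settings in which at most 6 genes in either direction were called in the whole matrix. Pcna, Ccnb1, Ccnb2 and Tyms have annotated pseudogenes, so the counting may have split their reads.

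**Figure D3:**
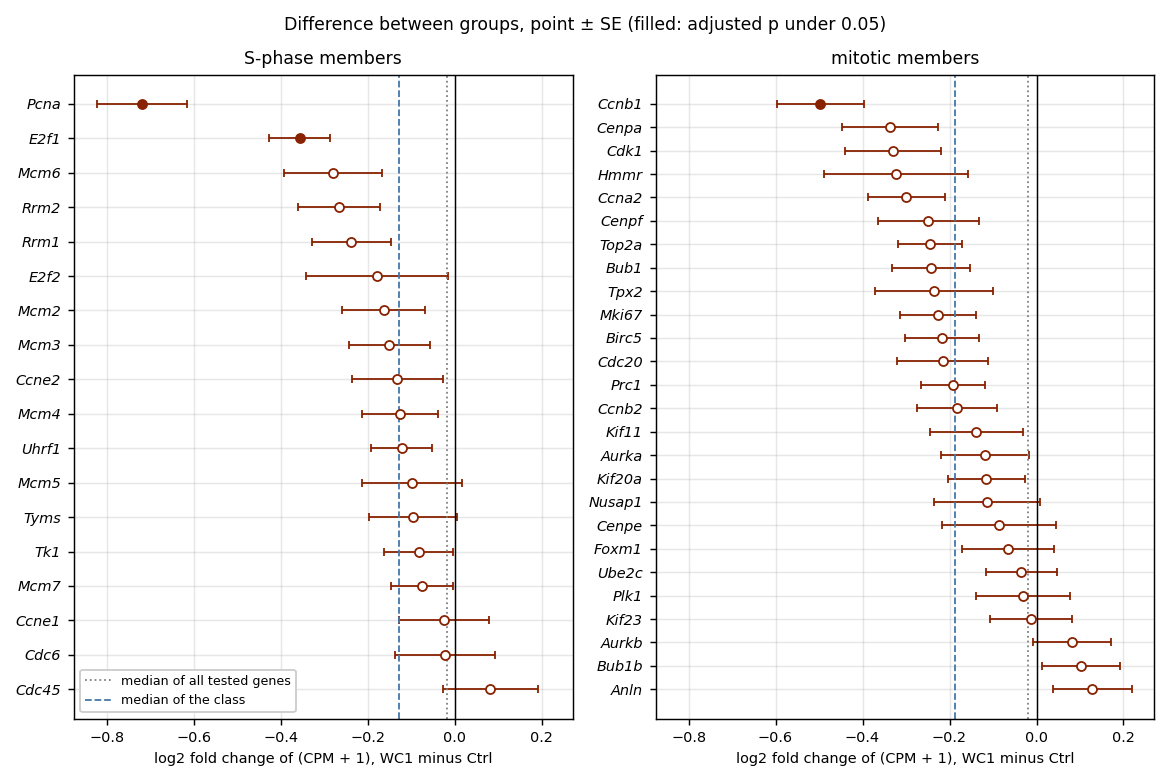
Points are log2 fold changes of (CPM + 1), WC1 minus Ctrl, with bars of 1 SE from limma, for the S-phase (left) and mitotic (right) members. Filled points passed the threshold (Pcna, E2f1 and Ccnb1), the dashed line is the median of the class (-0.13 and -0.19) and the dotted line is the median of all tested genes (-0.02).

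Among the replication origin and fork proteins, Pcna had the largest change and was the only one called. The helicase genes Mcm2 to Mcm7 had log2 fold changes between -0.28 (Mcm6) and -0.08 (Mcm7), with -0.16, -0.15, -0.13 and -0.10 for Mcm2, Mcm3, Mcm4 and Mcm5, a median of -0.14 and 0 of 6 called, and 5 of the 6 had both WC1 libraries below both Ctrl libraries, beside 36.6% of all tested genes. Mcm6 CPM was 78.4 and 74.6 in Ctrl and 69.5 and 56.8 in WC1 (limma adjusted p = 0.141). In TPM the median of the 6 was -0.001, and Mcm4, Mcm5 and Mcm7 changed sign. Cdc6, which loads the helicase, was at -0.02, and Cdc45, which activates it, was the only S-phase gene above 0. Cdc45 CPM was 10.1 and 9.79 in Ctrl and 9.83 and 11.3 in WC1, overlapping groups with a fold change of 0.08 ± 0.11 (SE, n = 2 per group), and its exons overlap those of Ufd1 on the other strand.

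None of the genes of deoxynucleotide synthesis passed the test. Rrm1 and Rrm2, the subunits of ribonucleotide reductase, had log2 fold changes of -0.24 and -0.27 (limma adjusted p = 0.128 and 0.110). Tyms, which makes thymidylate, and Tk1, which salvages thymidine, had -0.10 and -0.08. All 4 estimates were below 0 in CPM, and 0 of 4 passed, while in TPM Tyms and Tk1 were at 0.03 and 0.05. Uhrf1, which maintains DNA methylation on newly copied strands, had 32.4 and 31.8 CPM in Ctrl and 29.5 and 29.3 in WC1, a fold change of -0.12 in CPM and 0.01 in TPM that did not pass (limma adjusted p = 0.266).

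The cyclins and their kinase were the role group with a mitotic call. The G1/S cyclins Ccne1 and Ccne2 had fold changes of -0.02 and -0.13, and Ccna2, the cyclin of S phase and G2, had -0.30. Ccna2 CPM was 39.4 and 40.4 in Ctrl and 34.4 and 30.2 in WC1 (limma adjusted p = 0.0768). Cdk1, the kinase of mitotic entry, had 33.4 and 28.7 CPM in Ctrl and 25.8 and 23.1 in WC1. Its fold change of -0.33 ± 0.11 (SE, n = 2 per group) did not pass (limma adjusted p = 0.0985). The remaining cyclin, Ccnb2, was at -0.18.

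Mki67 and Top2a, which are often used as proliferation markers, were at lower CPM in both WC1 libraries and did not pass. Mki67, which encodes the Ki-67 protein that coats mitotic chromosomes, had 89.5 and 84.4 CPM in Ctrl and 79.0 and 69.7 in WC1. Its fold change was -0.23 ± 0.09 (SE, n = 2 per group, 95% interval -0.45 to -0.00, limma adjusted p = 0.132). Top2a, the topoisomerase that untangles sister chromosomes, had 63.3 and 60.9 CPM in Ctrl and 54.2 and 50.4 in WC1, with a fold change of -0.24 ± 0.07 (SE, n = 2 per group, limma adjusted p = 0.0783). The centromere proteins Cenpa, Cenpe and Cenpf were at -0.34, -0.09 and -0.25, and 0 of 3 passed. In TPM, Mki67, Top2a, Cenpa and Cenpf stayed below 0 and Cenpe was at 0.04.

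Of the mitotic kinases and the passenger complex, Plk1 was at -0.03, Aurka at -0.12 and Birc5, the survivin gene, at -0.22, while Aurkb, the kinase that corrects chromosome attachment, had 13.1 and 12.7 CPM in Ctrl and 14.1 and 13.3 in WC1. Of the spindle checkpoint and the anaphase-promoting complex, Bub1, Cdc20 and Ube2c were at -0.24, -0.22 and -0.04, while Bub1b, which encodes the checkpoint protein BUBR1, had 18.5 and 17.5 CPM in Ctrl and 20.2 and 18.6 in WC1. Aurkb (0.08), Bub1b (0.10) and Anln (0.13) were the only mitotic genes with an estimate above 0, and none of them passed (limma adjusted p between 0.352 and 0.539). Anln encodes anillin, a scaffold of the contractile ring, and its CPM was 23.6 and 22.9 in Ctrl and 27.0 and 24.0 in WC1. For these 3 both WC1 libraries exceeded both Ctrl libraries, a pattern that 32.7% of all tested genes showed. In TPM, Plk1 (0.10), Aurka (0.02), Birc5 (0.36) and Ube2c (0.10) were above 0 too, and Bub1 and Cdc20 stayed below it.

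Among the other spindle and cytokinesis genes, Hmmr (-0.32) and Tpx2 (-0.24), which take part in spindle assembly, showed a gap between the WC1 libraries. Hmmr CPM was 13.9 and 14.2 in Ctrl, 13.0 in WC1 1 and 9.32 in WC1 2, and Tpx2 CPM was 35.7 and 38.5 in Ctrl, 35.6 in WC1 1 and 27.6 in WC1 2. In both genes WC1 1 was close to Ctrl and WC1 2 was clearly lower. Prc1, which bundles the central spindle, was at -0.19, the motor genes Kif11, Kif20a and Kif23 were at -0.14, -0.12 and -0.01, and Nusap1 was at -0.11, with 0 of these called. In TPM, Kif20a (0.02), Kif23 (0.11), Nusap1 (0.02) and Foxm1 (0.06) were above 0. Of the transcription factors besides E2f1, E2f2 was at -0.18 ± 0.16 with overlapping groups, and Foxm1, the activator of G2 and mitotic genes, was at -0.07 ± 0.11 (SE, n = 2 per group), with 20.0 and 20.5 CPM in Ctrl and 21.0 and 17.8 in WC1.

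S-phase and mitotic genes were then compared, and the data did not separate them. The median log2 fold change was -0.13 for the 18 S-phase genes and -0.19 for the 26 mitotic genes, a difference of 0.06 that is below the SD of this difference between libraries of a group (0.093). The order depended on 1 library: without WC1 2 the medians were -0.13 and -0.08, with the mitotic genes the nearer to 0. Estimates were below 0 for 17 of 18 S-phase and 23 of 26 mitotic genes, and both WC1 libraries were below both Ctrl libraries for 12 and 16 of them, beside 52.8% and 36.6% of all tested genes for these patterns. Leaving out Pcna kept the S-phase median at -0.13, and leaving out Ccna2 and Mki67 gave a mitotic median of -0.16, choices made after the values were seen. In TPM the medians were -0.001 and -0.03, which were 0.10 and 0.13 below the median of all tested genes.

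The libraries of each group were also compared gene by gene, as a description, since genes of a class vary together and the difference between the classes was not tested. WC1 2 was below WC1 1 for 24 of 26 mitotic genes (92.3%) and 10 of 18 S-phase genes (55.6%), beside 54.8% of all tested genes. Ctrl 2 was below Ctrl 1 for 15 S-phase and 14 mitotic genes, beside 48.8% of all tested genes. The median mitotic fold change was -0.25 without WC1 1 and -0.08 without WC1 2, whereas the S-phase median was -0.13 in both cases. The S-phase median in turn moved with the Ctrl libraries, to -0.08 without Ctrl 1 and -0.18 without Ctrl 2, where the mitotic median was -0.18 and -0.19. Without WC1 1, 13 members were called lower, beside 19.5% of all tested genes, and in that fit the single WC1 library is assumed to vary as the Ctrl libraries do.

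The ratio of summed S-phase to summed mitotic TPM was 1.79 and 1.62 in Ctrl and 1.40 and 1.42 in WC1, without overlap. Pcna made up 49.8% and 49.0% of the S-phase sum in Ctrl and 41.2% and 38.7% in WC1. Without Pcna the ratio was 0.901 and 0.823 in Ctrl and 0.823 and 0.869 in WC1, and the groups overlapped. The lower ratio in WC1 thus rested on Pcna. By gene, the median level over all libraries was 20.6 TPM for S-phase and 11.9 TPM for mitotic genes, from 280 TPM for Pcna down to 1.80 TPM for Cenpf, which binds kinetochores.

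**Figure D4:**
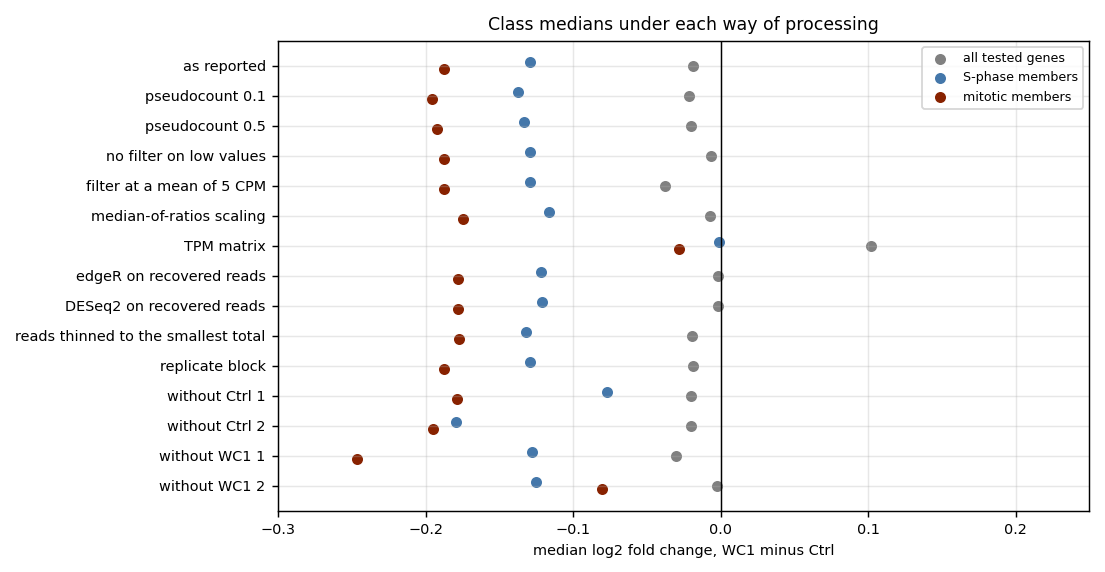
Points are the median log2 fold change, WC1 minus Ctrl, of S-phase members (blue), mitotic members (dark red) and all tested genes (grey) for the values as reported and for each other way of processing or left-out library. Both class medians lie below the all-gene median in every row, the TPM row moves all medians to the right, and in the row without WC1 2 the mitotic median (-0.08) lies right of the S-phase median (-0.13).

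The rest of the cell cycle machinery was read from lists of other genes. Of 54 other S-phase genes, 1 was lower (1.85%, beside 7.71% of all tested genes) and 0 were higher (beside 10.2%), with a median of -0.13. The gene called was Slbp, which encodes the binding protein of histone mRNA stem loops, with 41.3 and 36.9 CPM in Ctrl and 19.1 and 20.6 in WC1, a fold change of -0.94 ± 0.09 (SE, n = 2 per group, limma adjusted p = 0.0133). It was lower in both WC1 libraries and was called in TPM too. Gmnn, Dbf4 and Blm followed with fold changes of -0.39, -0.27 and 0.39 and did not pass. In TPM, Blm (0.45, limma adjusted p = 0.0474) and Pola2 (0.33, limma adjusted p = 0.0423) passed as higher. Of 69 other G2 and mitotic genes, 1 was lower (1.45%) and 0 were higher, beside the same shares of all tested genes, with a median of -0.12. Ncapg2, a condensin subunit, had 22.7 and 21.9 CPM in Ctrl and 16.3 and 15.6 in WC1 (-0.46 ± 0.08, SE, n = 2 per group, limma adjusted p = 0.0289), and it did not pass in TPM (limma adjusted p = 0.0815). Incenp, Cks1b and Ttk had -0.34, -0.26 and -0.30 and did not pass, though Incenp passed with edgeR (adjusted p = 0.0448).

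Of 21 G1 cyclins, their kinases and RB family genes, 3 were higher and 3 lower (14.3% each, beside 10.2% and 7.71% of all tested genes), with a median of -0.08. Ccnd2, which encodes cyclin D2, rose from 135 and 156 CPM in Ctrl to 243 and 281 in WC1 (0.84 ± 0.11, SE, n = 2 per group, limma adjusted p = 0.0189), while its kinase partners Cdk4 (-0.43) and Cdk6 (-0.68) fell. Rb1, the retinoblastoma protein that restrains E2F, rose by 0.35, Tfdp2, a partner of E2F, rose by 0.43, and E2f5 was lower (-0.60). Cdk4 and E2f5 did not pass in TPM (limma adjusted p = 0.0702 and 0.0659), and Cdk6 and E2f5 did not pass with edgeR (adjusted p = 0.0509 and 0.0519), whereas E2f4 (-0.31, limma adjusted p = 0.0511) passed with edgeR (adjusted p = 0.0483).

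Of 20 CDK inhibitors and arrest genes, 3 were higher (15.0%) and 4 lower (20.0%), beside 10.2% and 7.71% of all tested genes, with a median of -0.14. In TPM 5 were higher and 3 lower, Ccng1 (0.44, limma adjusted p = 0.0430) and Btg1 (0.34, limma adjusted p = 0.0312) being added. Btg2, an antiproliferative gene, rose from 65.9 and 67.7 CPM in Ctrl to 102 and 107 in WC1 (0.63 ± 0.07, SE, n = 2 per group, limma adjusted p = 0.0139), and Tob1 (0.78) and Cdkn2b (0.59), which encodes p15, rose as well. Cdkn2a, which encodes p16 and ARF, fell from 3.16 and 3.52 CPM to 1.34 and 1.45 (-0.86 ± 0.12, SE, n = 2 per group, limma adjusted p = 0.0201). Cdkn1c, which encodes p57, was lower in both WC1 libraries but differed between them, with 61.9 and 58.3 CPM in Ctrl, 27.6 in WC1 1 and 15.6 in WC1 2 (-1.49 ± 0.26, SE, n = 2 per group, limma adjusted p = 0.0271). Plk3 (-0.65) and Mdm2 (-0.51) were lower too, and Mdm2 did not pass in TPM (limma adjusted p = 0.0510). No call in these 4 lists held when either Ctrl library was left out. Almost no gene of the whole matrix was called in those settings, so the loss says nothing particular about these lists.

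Markers of several cell types in the tissue had larger median differences than the members. For the counts called below, the shares of all tested genes were 7.71% lower and 10.2% higher. In TPM these shares were 4.13% and 14.6%. Of 18 macrophage markers 7 were lower (4 in TPM) and 0 higher, with a median of -0.74, and their summed CPM was 29024 and 26148 in Ctrl, 18402 in WC1 1 and 11739 in WC1 2, with no marker at 0. Estimates were below 0 for 17 of the 18, beside 52.8% of all tested genes. Cd163 was the exception (0.36, limma adjusted p = 0.0909), with both WC1 libraries above both Ctrl libraries. Lyz2, which encodes a lysozyme, fell by 1.25, Itgam, an integrin subunit, fell by 0.96 and Mrc1, the mannose receptor, fell by 0.89 (limma adjusted p = 0.0363, 0.0406 and 0.0213), with Itgam not passing in TPM (0.0510), while Gpnmb (-1.08), the marker with the highest mean CPM in Ctrl, did not pass, nor did Adgre1 (-0.59) and Cd68 (-0.67). The CPM sum of the members without Pcna came to 3.99% and 4.28% of the macrophage sum in Ctrl and to 5.71% and 8.15% in WC1, where the mean of the macrophage sum was 54.6% of Ctrl and that of the members without Pcna was 88.2%. Pcna came to 0.788% and 0.809% of the macrophage sum in Ctrl and to 0.783% and 1.05% in WC1. Of 13 adipocyte markers 10 were higher (median 1.08), Adipoq (1.23) and Lep (1.34) among them, with summed CPM of 12418 and 14556 in Ctrl, 23606 in WC1 1 and 31686 in WC1 2. Of 8 endothelial markers 6 were higher (median 1.09), Pecam1 (1.01) and Cdh5 (1.38) among them, with summed CPM of 462 and 512 in Ctrl, 958 in WC1 1 and 1220 in WC1 2. Of 11 fibroblast and progenitor markers 4 were lower (median -0.36), Pdgfra (-0.59) among them and Pdgfrb (0.05) not. Of 7 mast cell markers 6 were lower (median -3.14), Cpa3 (-3.26) among them and Kit (-0.39) not. The part of these cell types in the members' values was not tested.

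The summed CPM of 10 T and NK cell markers, Cd3e (0.05) and Cd3d (-0.08) among them, lay between 11.8 and 20.6 in all libraries. Cd247 (0.98, limma adjusted p = 0.0309) was the only one called higher (10.0%, beside 10.2% of all tested genes). Of 6 dendritic cell markers 1 was higher (Zbtb46, 0.61) and 2 were lower, Ccr7 (-1.06) and Flt3 (-0.59). Flt3 did not pass in TPM (limma adjusted p = 0.0794) or with edgeR (adjusted p = 0.0531). Of 6 mesothelial markers, Msln (0.17) and Upk3b (-0.14) among them, 0 were called, and their summed CPM was 114 and 84.3 in Ctrl, 59.9 in WC1 1 and 157 in WC1 2. Of the B cell genes, Ms4a1 had 0.395 and 0.195 CPM in Ctrl, 0.672 in WC1 1 and 5.37 in WC1 2, and Cd79b was higher (0.95, limma adjusted p = 0.0486), with 1.90 and 1.59 CPM in Ctrl, 3.29 in WC1 1 and 5.50 in WC1 2. WC1 2, the library with the lowest summed mitotic CPM (517), was the highest in the mesothelial, adipocyte and endothelial sums and in both B cell genes and the lowest in the macrophage sum, and the part of these cells in the mitotic values was not tested. Of 5 erythroid markers tested, 1 was called higher, Hba-a1, but this call is uncertain because its near-identical copy Hba-a2 can take the same reads. Hba-a1 was at 2.49 and 3.42 CPM in Ctrl, 241 in WC1 1 and 51.8 in WC1 2, and Hba-a2 was at 179 and 188 in Ctrl, 0.164 in WC1 1 and 231 in WC1 2. Together they had 182 and 192 CPM in Ctrl and 241 and 282 in WC1. Of 7 epididymis and testis markers 0 passed the filter on low values.

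**Figure D5:**
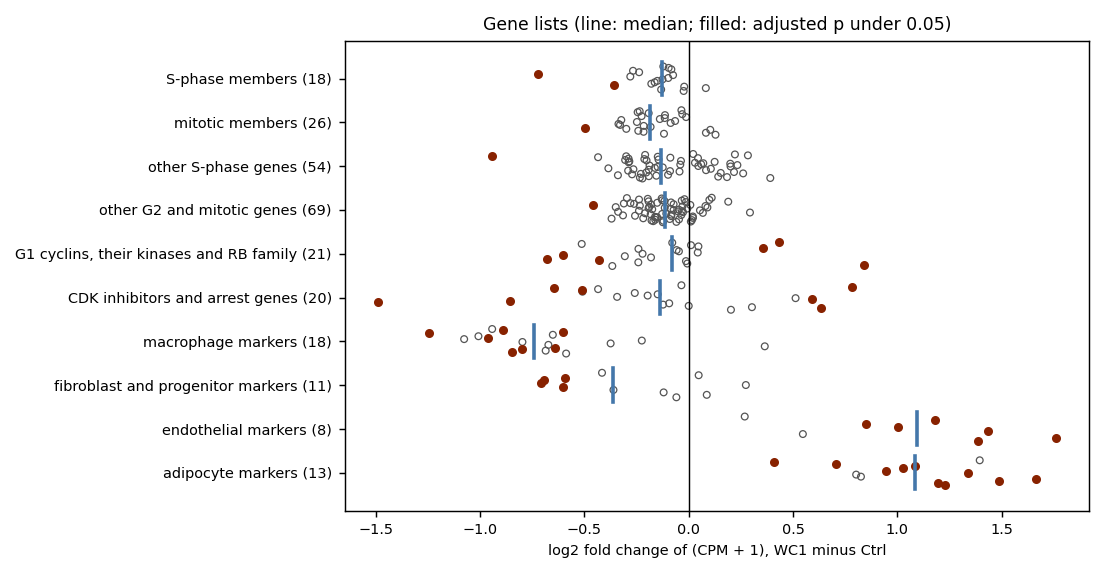
Each point is the log2 fold change of (CPM + 1), WC1 minus Ctrl, of 1 gene, filled where limma adjusted p was under 0.05, and blue lines are list medians. The points of the S-phase and mitotic members lie mostly within 0.4 of 0 on the left side, while macrophage markers (median -0.74) lie further left and adipocyte and endothelial markers (medians 1.08 and 1.09) lie to the right.

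The precision of the data bounds the size of the changes. On the log2(CPM + 1) scale no member had a 95% interval that reached -1 or 1, 12 had an interval that reached -0.5, and 0 reached 0.5. In TPM the estimates were less precise for Birc5 (0.36 ± 0.32, SE, n = 2 per group). The lowest read number of any member in any library was 393. For 11 members, Ccna2, Mcm7, Plk1 and Ube2c among them, exons overlap a gene on the other strand, and the sources used here do not say whether reads were counted by strand.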

How the data were processed

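Poly(A) RNA of epididymal adipose tissue had been made into directional libraries. Per the labels and the submitters' processing notes, reads were handled with fastp, HISAT2 and StringTie on mm10, while the sources used here name no versions, annotation or read counter. The authors deposited a CPM matrix, used here as a signal proportional to read counts because its columns summed to between 97.6% and 105% of the sum that plain CPM would give, and a TPM matrix. Of the CPM values, 100% were whole multiples of 1 read (tolerance 0.01 read), which gave the read totals. A total of 3 reads was worth 0.0345 to 0.0492 CPM.

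Genes at 0.5 CPM or more in at least 2 of 4 libraries were tested on log2(CPM + 1) with limma 3.58.1 in R 4.3.3 (abundance trend, Benjamini-Hochberg, threshold 0.05). This scale understates changes of low genes. edgeR 4.0.16 and DESeq2 1.42.0 on the recovered reads, the TPM matrix, other filters, pseudocounts and scalings, and leaving out each library were alternatives. An exact permutation test cannot go below 0.333 here. Within each group neither library was a second deposit of the other (chi-square per gene 37.0 between the Ctrl and 93.5 between the WC1 libraries). Libraries of different groups were not compared in this way. The limma fit, the edgeR fit and the recovery of reads were tested on simulated data.

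The 44 members and all lists were chosen with earlier results of these data known. A log2 fold change is given for every member, with values per library for called members, Mki67, Top2a, Cdk1, Pcna and members moving against their class, and fold changes or values for the 4 smallest p of each other cell cycle list and the first 2 genes of each marker list, apart from 1 gene that is not reported here. Values of Mcm6, Ccna2, Uhrf1, Foxm1, Hmmr, Tpx2, Pola2, Ccng1, Btg1, Cd163, Cd79b and the further called list genes were added after their values were seen. Gene positions are from GENCODE M21. RefSeq windows were missing for Aurkb, Ccna2, Ccne2, Foxm1, Kif20a, Mcm4 and Tpx2.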

Additional observations from a re-analysis of the deposited data

How the results depend on the processing

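Of 616 member values under the alternatives, 563 kept their direction and their side of the threshold. Under other pseudocounts, a minimum mean of 5 CPM, median-of-ratios size factors, edgeR, DESeq2 and thinned reads, 3 members were lower and 0 higher. Without a filter on low values 2 members were lower, Ccnb1 no longer passing, and 788 genes were higher and 532 lower in all, against 1443 and 1088 as reported. With DESeq2 1736 genes were lower. In the TPM matrix 583 genes and 1 member were lower, and the S-phase and mitotic medians were -0.0013 and -0.028. The other cell cycle lists held 6 higher and 9 lower calls as reported, 3 and 4 without the filter and 10 and 5 in TPM. Without the filter more genes were tested. For the other changes the cause was not tested.

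Leaving out 1 library at a time, 2 to 2424 genes were higher and 4 to 2748 lower, 0 to 13 members were lower and 0 higher, the S-phase median ran from -0.18 to -0.077, the mitotic median from -0.25 to -0.080 and their difference from -0.045 to 0.12. The other lists then held 0 to 8 higher and 0 to 26 lower calls. The lowest counts came without a Ctrl library and the highest without WC1 1.

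The replicate number as a block gave 1769 genes higher and 1497 lower (10.6%) and 4 members lower, Cdk1 being the added one. The labels tie the numbers to nothing shared, and with 2 pairs and r = 0.19 between same-numbered deviations the pairing was not established.

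Signs of members that did not pass changed as follows. In TPM the log2 fold changes were Birc5 0.36, Uhrf1 0.013, Ccne1 0.10, Kif23 0.11, Tk1 0.052, Ube2c 0.10, Aurka 0.017, Mcm7 0.062, Mcm5 0.036, Mcm4 0.010, Plk1 0.098, Nusap1 0.018, Cdc6 0.089, Tyms 0.032, Kif20a 0.016, Cenpe 0.036, Foxm1 0.065. Kif23 was at 0.0029 with edgeR and 0.0028 with DESeq2. Leaving out 1 library, the ranges were Ccne1 -0.078 to 0.029, Cdc45 -0.012 to 0.18, Cdc6 -0.12 to 0.074, Cenpe -0.20 to 0.027, Foxm1 -0.18 to 0.048, Kif23 -0.081 to 0.056, Mcm5 -0.23 to 0.038, Nusap1 -0.25 to 0.025, Plk1 -0.13 to 0.066, Ube2c -0.088 to 0.018.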

Other observations

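Birc5 was the only member whose ratio of CPM to TPM varied by more than 1.5-fold between libraries, after scaling to the median ratio of each library, and 27 of all tested genes (0.192%) did so. Its CPM was 25.6 and 26.4 in Ctrl and 23.3 and 21.2 in WC1, whereas its TPM was 22.8 in Ctrl 1, 45.1 in Ctrl 2, 42.7 in WC1 1 and 40.0 in WC1 2. Ctrl 1 stood apart in TPM and not in CPM. The log2 fold change was -0.22 in CPM and 0.36 in TPM.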
